A study of Mus musculus with 6 samples.

Results

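Matrix metalloproteinases (MMPs) and their tissue inhibitors (TIMPs) were examined in mouse samples labelled as aorta, of 2 genotypes. The set held 10 genes of the 19938 genes that the array measured with a probe set of a single gene symbol. They were 6 metalloproteinases, Mmp2, Mmp3, Mmp9, Mmp11, Mmp14 and Mmp19, and the 4 inhibitors Timp1, Timp2, Timp3 and Timp4. Members were taken from a list of symbols, and each gene was represented by the single-symbol probe set with the highest mean over all arrays. All 10 genes had just 1 such probe set, so no choice between probe sets was made.

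RNA from samples labelled as aorta was hybridised to 6 one-colour arrays. The labels give 3 samples of Trail knockout mice and 3 of wild-type mice, all of the strain C57Bl6/J and all 6 weeks old, with no treatment named in either group. The gene Tnfsf10 encodes Trail, which triggers cell death through receptors on the target cell, and the series text gives Amgen as the source of the knockout mice. The sources used here do not give the sex of the mice, the deleted part of the gene or any pooling of animals. The labels do not say whether the 3 samples of a genotype came from 3 animals, so p-values measure only the spread between these samples.

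MMPs are zinc-dependent proteases that together cut most proteins of the extracellular matrix, among them collagens, elastin and fibronectin. They are made as inactive zymogens whose propeptide covers the active-site zinc, and they are switched on when that propeptide is removed. TIMPs bind the active site and block it, and Timp2 also links the zymogen of Mmp2 to the membrane protease Mmp14, which starts its activation. In the vessel wall these enzymes take part in remodelling of the medial and adventitial matrix, and macrophages and smooth muscle cells are known sources of them.

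The array labelled wild type 1 stood apart from the other 5, and genotype differences are given with and without it. Its Pearson r with the other arrays over the annotated probe sets was 0.899 to 0.907, against 0.974 to 0.996 among the other 5. The other 5 arrays carried strong signals of tissues that the label does not name. Their list medians were 11.40 to 11.92 for skeletal muscle markers and 10.98 to 11.23 for markers of stratified squamous epithelium, with skeletal muscle actin Acta1 at 13.00 to 13.25 and the keratin gene Krt4 at 12.90 to 13.03. On wild type 1 these medians were 5.87 and 5.42, and all 15 and all 18 markers were over 2-fold lower than on every other array. There 8 of 12 brown fat and 12 of 14 white fat markers were over 2-fold higher than on every other array. Smooth muscle markers had a list median of 9.28 on wild type 1 and 10.30 to 11.09 elsewhere. Of these 12 genes wild type 1 was lowest for 5, with 3 over 2-fold lower, and highest for 2. Smooth muscle actin Acta2 gave 12.27 to 12.63 over all arrays. The elastin gene Eln gave 10.31 on wild type 1 and 8.60 to 8.96 elsewhere. Lung epithelium markers had a median of 6.93 on knockout 1 against 5.16 to 5.46 elsewhere, and stomach epithelium markers a median of 12.01 on knockout 2 and 6.81 on wild type 3 against 4.88 to 5.38 elsewhere. Tnfsf10 gave a log2 signal of 8.42 on wild type 1, 4.90 and 4.85 on wild type 2 and 3, and 5.02, 4.48 and 4.09 on knockout 1, 2 and 3. The deleted gene thus separated wild type 1, and not wild type 2 and 3, from the knockout arrays, and directions below follow the labels.

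**Figure D1:**
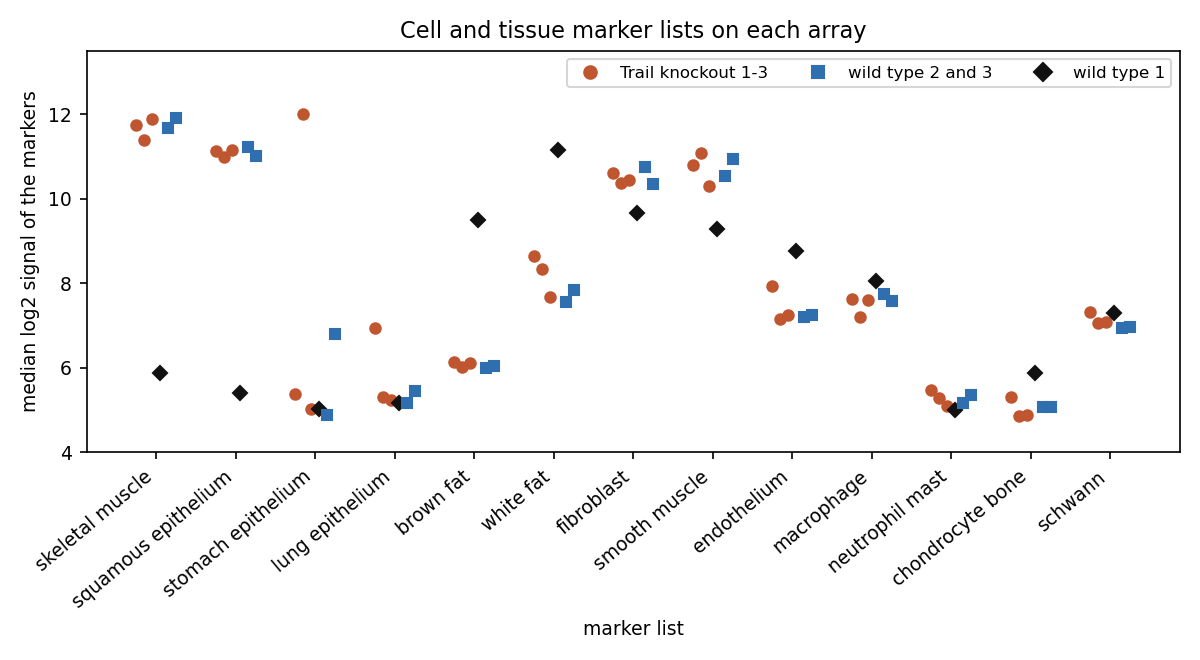
Median log2 signal (vertical axis) of each marker list (horizontal axis) on the 6 arrays, with knockout arrays as circles, wild type 2 and 3 as squares and wild type 1 as a diamond. The diamond lies far below the other arrays for skeletal muscle and squamous epithelium (5.87 and 5.42) and far above them for brown and white fat (9.51 and 11.15).

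RefSeq promoter windows of the build GRCm38.p6, running from 250 bases before to 50 bases after the annotated start, were found for 7 of the 10 genes. Those of Mmp3 and Timp4, the members with the widest spread over the arrays, and of Timp2, the member with the narrowest, are shown. A link between a window and the spread of its gene was not tested. They are printed 5′ to 3′ on the strand of the gene, and capitals mark matches to the searched motifs. The Mmp3 window lies at chr9:7445572-7445871 on the plus strand, the Timp4 window at chr6:115252156-115252455 on the minus strand and the Timp2 window at chr11:118355362-118355661 on the minus strand.
Mmp3: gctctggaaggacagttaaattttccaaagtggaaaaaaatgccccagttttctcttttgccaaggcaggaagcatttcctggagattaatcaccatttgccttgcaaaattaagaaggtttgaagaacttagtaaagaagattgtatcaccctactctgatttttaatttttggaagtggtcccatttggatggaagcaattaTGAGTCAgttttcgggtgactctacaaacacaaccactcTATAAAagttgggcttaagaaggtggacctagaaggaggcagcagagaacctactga
Timp4: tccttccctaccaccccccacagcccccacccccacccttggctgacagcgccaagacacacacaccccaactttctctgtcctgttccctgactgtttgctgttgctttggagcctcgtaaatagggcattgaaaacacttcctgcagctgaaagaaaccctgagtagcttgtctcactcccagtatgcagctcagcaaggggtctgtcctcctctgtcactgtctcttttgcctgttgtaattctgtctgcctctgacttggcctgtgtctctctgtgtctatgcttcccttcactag
Timp2: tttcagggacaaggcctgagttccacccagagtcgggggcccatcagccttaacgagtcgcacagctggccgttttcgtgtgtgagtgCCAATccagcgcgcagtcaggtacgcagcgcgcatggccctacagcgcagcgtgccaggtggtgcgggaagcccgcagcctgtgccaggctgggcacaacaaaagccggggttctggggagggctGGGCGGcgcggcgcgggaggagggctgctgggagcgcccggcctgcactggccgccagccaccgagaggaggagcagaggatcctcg

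The motifs searched on both strands were the AP-1 motif TGANTCA, the TATA box TATAAA, the GC box GGGCGG and the CCAAT box, searched by the letters of its name. Of 32851 windows of this length, 7.81% hold the AP-1 letters, 13.6% the TATA letters, 35.7% the GC box letters and 37.4% the CCAAT letters. The Mmp3 window holds 1 AP-1 match and 1 TATA match and was the only one of the 7 members' windows with either. Its AP-1 match runs from -46 to -40 and its TATA match from -7 to -2 relative to the annotated start. The Timp2 window holds 1 GC box and 1 CCAAT match, which do not overlap. The Timp4 window holds none of the 4 motifs, which says only that these letters are not in it. Windows of Mmp2, Mmp9 and Mmp19 are not used here.

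None of the 10 genes differed between the genotypes by the test. The test was limma's moderated test with an intensity trend, fitted to all annotated probe sets and adjusted by the Benjamini-Hochberg method, and a gene was called at an adjusted p under 0.05. The dimmest 40% of probe sets, with a mean log2 signal over all 6 arrays up to 5.86, were left out, and 14046 were tested. The fit without wild type 1 kept the same probe sets, so that its test set was chosen with wild type 1 included. Of the members, 7 passed this filter, and Mmp3, Mmp9 and Timp1 did not and take their values from the fit without it. Timp4 passed at a mean of 5.92, which rests on wild type 1, since its mean over the other 5 arrays was 5.39. Timp1 lay just outside at 5.78. On all 6 arrays limma called 0 of 14046 probe sets (0.00%), with 89 at an unadjusted p under 0.05 (0.634%), and called 0 of 10 members, with 0 at an unadjusted p under 0.05. On the 5 arrays other than wild type 1 it again called 0 probe sets (0.00%) and 0 members, with 217 probe sets (1.54%) and 0 members at an unadjusted p under 0.05. Over the members the limma adjusted p ran from 0.921 to 0.977 on 6 arrays and from 0.997 to 0.999 on 5. The groups overlapped for all 10 members on 6 arrays and on 5, where 6.31% and 13.8% of all 19938 genes had groups that did not overlap.

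The gelatinases Mmp2 and Mmp9 cut denatured collagen and basement membrane collagen. Mmp2 gave log2 signals of 9.33, 9.16 and 9.17 on knockout 1, 2 and 3, and of 8.75, 9.65 and 9.18 on wild type 1, 2 and 3. Both the lowest and the highest value were thus wild-type arrays, with the knockout arrays between them. The knockout mean was 9.22 ± 0.096 (SD, n = 3) and the wild-type mean 9.19 ± 0.45 (SD, n = 3). The genotypes thus differed by 0.028 (SE 0.24, 95% interval -0.57 to 0.63, limma adjusted p = 0.977). Without wild type 1 it was -0.19 (SE 0.16, 95% interval -0.58 to 0.19, limma adjusted p = 0.997), so the sign turned, and without wild type 1 and wild type 2 it was 0.042.

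Mmp9, the gelatinase best known from neutrophils and macrophages, was a dim probe set below the filter. It gave 5.67, 5.01 and 5.11 on knockout 1, 2 and 3, and 5.57, 5.04 and 5.32 on wild type 1, 2 and 3. Knockout 1 and wild type 1 were the highest arrays and were 0.10 apart. Knockout less wild type was -0.048 (SE 0.22, 95% interval -0.59 to 0.49) on 6 arrays and 0.080 (SE 0.22) without wild type 1. It also changed sign there on leaving out knockout 1, to -0.12. Neutrophil and mast cell markers had list medians of 5.08 to 5.48 in the knockout group and 5.01 to 5.37 in the wild-type group. The highest was on knockout 1 and the lowest on wild type 1, where 2 of 16 were over 2-fold lower. The log2 of the summed macrophage marker signal was 12.26 on wild type 1 and 12.13 on knockout 1, against 11.25 to 11.99 elsewhere. The macrophage list median was 8.05 on wild type 1, but wild type 2 at 7.75 lay above knockout 1 at 7.63. The part of these cells in the Mmp9 values was not tested.

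The stromelysin Mmp3 cuts proteoglycans, laminin and fibronectin and can activate other MMPs. Its values were 6.01, 4.69 and 5.06 on knockout 1, 2 and 3, and 6.74, 4.79 and 4.65 on wild type 1, 2 and 3. Wild type 1 was highest, knockout 1 was second, and the other 4 arrays lay between 4.65 and 5.06. Mmp3 had the widest spread of the members over the 5 arrays other than wild type 1, 1.36, where the other members had spreads from 0.16 for Timp2 up to 0.66 for Mmp9. Its genotype difference was -0.14 (SE 0.63, 95% interval -1.68 to 1.40, limma adjusted p = 0.975) on 6 arrays and 0.54 (SE 0.35, 95% interval -0.29 to 1.36, limma adjusted p = 0.999) without wild type 1. That positive value rested largely on knockout 1, and without it the difference on the remaining 4 arrays was 0.16.

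Markers of other tissues were high on the arrays where Mmp3 was high, and their part in its values was not tested. White fat markers had their highest list medians on wild type 1, at 11.15, and on knockout 1, at 8.64. On knockout 2, the next highest, the median was 8.35 and Mmp3 gave 4.69. Endothelial markers also had their highest medians on wild type 1 and knockout 1, 8.75 and 7.92 against 7.15 to 7.25 elsewhere. The same arrays had the highest medians of chondrocyte and bone, Schwann cell and brown fat markers. On wild type 1 and knockout 1 these were 5.87 and 5.31, 7.29 and 7.32, and 9.51 and 6.14. For brown fat, knockout 3 came close to knockout 1, at 6.12. Lung epithelium markers were high on knockout 1. No marker was at 0, since array signals have a floor above it, and fewer cells of a type and less RNA per cell cannot be told apart in bulk tissue.

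Mmp3 lies in a cluster of 10 MMP genes on chromosome 9, in the order Mmp13, Mmp12, Mmp1b, Mmp3, Mmp1a, Mmp10, Mmp8, Mmp27, Mmp20 and Mmp7 of the assembly GRCm38.p6. All 10 were on the array. The other 9 had signals from 2.31 to 5.77 and varied by 0.30 to 0.75 over the 6 arrays, against 2.09 for Mmp3. Relative to the mean of the other 5 arrays, wild type 1 stood at 1.70 for Mmp3 and between -0.17 and 0.21 for the other 9 genes of the cluster. The widest of these was Mmp12, macrophage elastase, with 5.77 on knockout 2 and 5.01 to 5.20 on the other arrays.

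Mmp11, stromelysin 3, is switched on inside the cell by the convertase furin. Its signals were 6.27, 6.21 and 6.18 on knockout 1, 2 and 3, and 6.25, 6.06 and 6.26 on wild type 1, 2 and 3. All 6 arrays lay within 0.21 of each other and wild type 1 was neither the highest nor the lowest. The genotypes differed by 0.029 (SE 0.11, 95% interval -0.23 to 0.29, limma adjusted p = 0.953) on 6 arrays and by 0.059 (SE 0.13, 95% interval -0.25 to 0.36) without wild type 1. Its sign turned under quantile normalization, to -0.031.

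Mmp14 is a membrane-bound collagenase and the main activator of Mmp2. It gave 9.14, 8.77 and 9.05 on knockout 1, 2 and 3, and 8.24, 8.99 and 8.82 on wild type 1, 2 and 3. Wild type 1 was the lowest, 1.45-fold below the lowest of the others, and the other 5 arrays lay within 0.37 of each other. The knockout mean of 8.99 ± 0.19 (SD, n = 3) stood against a wild-type mean of 8.68 ± 0.39 (SD, n = 3), a difference of 0.31 (SE 0.23, 95% interval -0.27 to 0.88, limma adjusted p = 0.921). Without wild type 1 it was 0.088 (SE 0.15, 95% interval -0.26 to 0.44, limma adjusted p = 0.997). Fibroblast markers also had their lowest list median on wild type 1, 9.66 against 10.35 to 10.76 elsewhere. Of these 13 genes wild type 1 was lowest for 7, with 0 over 2-fold lower, and highest for 3. Other lists, among them smooth muscle, skeletal muscle and squamous epithelium, had their lowest medians there too. The part of any of these in the Mmp14 values was not tested.

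Mmp19 is a secreted protease able to cut basement membrane proteins. The arrays gave 6.98, 6.65 and 6.96 for knockout 1, 2 and 3, and 7.84, 7.16 and 6.97 for wild type 1, 2 and 3. Knockout 2 was lowest and the wild-type arrays held the 2 highest values, but wild type 3 lay below knockout 1 and the groups overlapped. Mmp19 had the lowest unadjusted limma p of the members on 6 arrays, 0.119. Its difference was -0.46 (SE 0.25, 95% interval -1.08 to 0.16, limma adjusted p = 0.921), and -0.20 (SE 0.15, 95% interval -0.55 to 0.15, limma adjusted p = 0.997) without wild type 1. Macrophage markers likewise had their lowest list median on knockout 2, 7.20, and their highest on wild type 1, 8.05, with 1 of 14 over 2-fold higher there. All 14 had a lower mean in the knockout group on 6 arrays and 13 of 14 on 5, where 49.8% and 53.1% of all genes had a higher mean. Of the 12 that passed the filter, 1 and 2 had an unadjusted limma p under 0.05, beside 0.634% and 1.54% of all probe sets tested. The log2 of their summed signal was 11.25 to 12.13 in the knockout group and 11.95 to 12.26 in the wild-type group, and their part in the Mmp19 values was not tested.

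**Figure D2:**
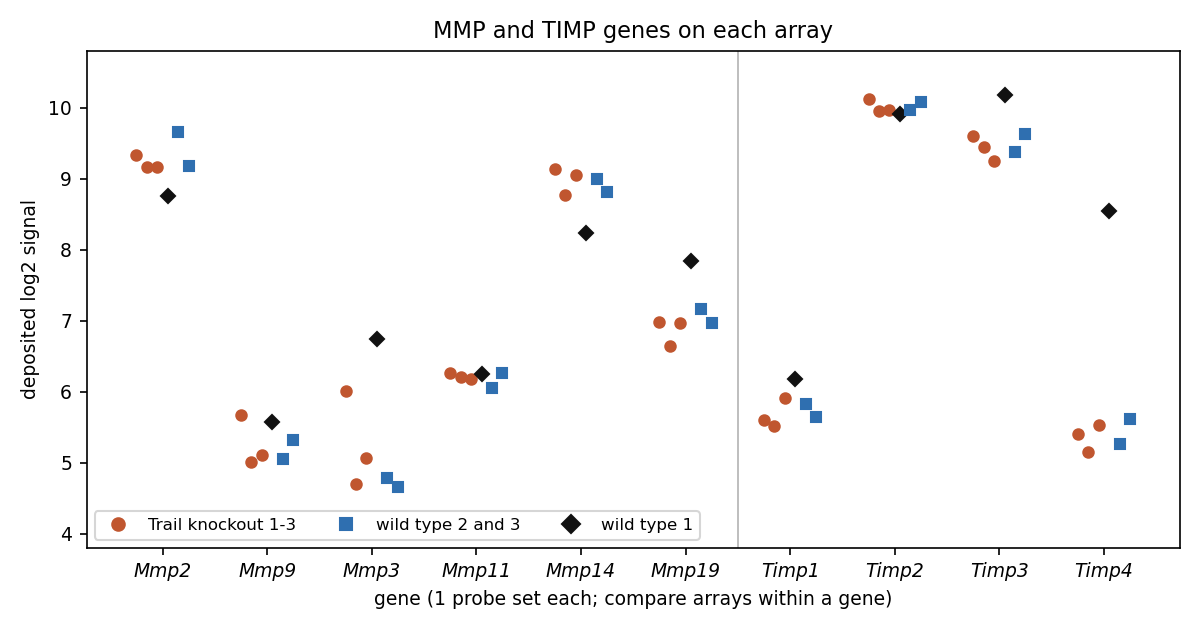
Deposited log2 signal (vertical axis) of each MMP and TIMP gene (horizontal axis) on the 6 arrays, with knockout arrays as circles, wild type 2 and 3 as squares and wild type 1 as a diamond; probe sets differ in their response, so levels compare between arrays and not between genes. Wild type 1 is highest for Mmp3, Mmp19, Timp1, Timp3 and Timp4, with Timp4 at 8.55 against 5.15 to 5.61, and lowest for Mmp2, Mmp14 and Timp2.

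Among the inhibitors, Timp1, a soluble inhibitor that responds to inflammatory signals, was dim. Its values were 5.60, 5.52 and 5.91 on knockout 1, 2 and 3, and 6.18, 5.82 and 5.64 on wild type 1, 2 and 3. Wild type 1 was highest by 0.27, and knockout 3 came second, so the groups overlapped. The difference was -0.20 (SE 0.19, 95% interval -0.66 to 0.25, limma adjusted p = 0.951) on 6 arrays and -0.053 (SE 0.17, 95% interval -0.45 to 0.34) without wild type 1.

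Timp2 was the member with the least variable signal. It gave 10.12, 9.96 and 9.97 on knockout 1, 2 and 3, and 9.92, 9.96 and 10.08 on wild type 1, 2 and 3. The 6 arrays lay within 0.20 of each other, and wild type 1 was lowest by 0.042. The genotypes differed by 0.027 (SE 0.11, 95% interval -0.26 to 0.31, limma adjusted p = 0.959), and by -0.0095 (SE 0.11, 95% interval -0.27 to 0.25, limma adjusted p = 0.998) without wild type 1.

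Timp3 is the inhibitor that binds to the extracellular matrix, and it also blocks ADAM and ADAMTS proteases. It gave 9.60, 9.45 and 9.25 on knockout 1, 2 and 3, and 10.18, 9.37 and 9.63 on wild type 1, 2 and 3. Wild type 1 was 1.47-fold above the next array, and the other 5 lay within 0.37 of each other with the genotypes interleaved. The difference was -0.29 (SE 0.24, 95% interval -0.88 to 0.30, limma adjusted p = 0.921) and became -0.063 (SE 0.15, 95% interval -0.42 to 0.29, limma adjusted p = 0.997) without wild type 1.

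Timp4, an inhibitor known from heart, showed the largest contrast of the set. Its signals were 5.40, 5.15 and 5.53 on knockout 1, 2 and 3, and 8.55, 5.27 and 5.61 on wild type 1, 2 and 3. Wild type 1 was 7.66-fold above the next highest array, wild type 3. Wild type 2 lay among the knockout arrays, and wild type 3 at 5.61 lay above the highest of them, knockout 3 at 5.53. The knockout mean was 5.36 ± 0.19 (SD, n = 3) and the wild-type mean 6.47 ± 1.80 (SD, n = 3), so that most of the spread of the wild-type group came from 1 array. The difference of -1.11 (SE 0.87, 95% interval -3.27 to 1.04, limma adjusted p = 0.921) became -0.076 (SE 0.19, 95% interval -0.53 to 0.38, limma adjusted p = 0.997) without wild type 1.

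Fat and endothelial markers were high on wild type 1, as Timp4 was, and their part in its value was not tested. The log2 of the summed white fat signal was 13.39 to 13.81 in the knockout group and 13.17 to 15.51 in the wild-type group, and 13.17 to 13.37 without wild type 1. For brown fat it was 10.99 to 11.67 in the knockout group and 11.55 to 14.35 in the wild-type group, and Ucp1, the uncoupling protein of brown fat, gave 12.32 on wild type 1 and 4.32 to 4.59 elsewhere. Of the endothelial markers 5 of 14 were over 2-fold higher on wild type 1. Among the other 5 arrays white fat medians ran from 7.56 to 8.64 and Timp4 from 5.15 to 5.61. On knockout 2 these were 8.35 and 5.15.

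Timp1, Timp3 and Timp4 each lie inside a synapsin gene in GRCm38.p6, Syn1, Syn3 and Syn2 in that order; synapsins coat synaptic vesicles of neurons. Their probe sets were looked up after the member values had been seen. Syn2, the host of Timp4, gave 8.16 on wild type 1 and 6.23 to 6.51 on the other arrays. Syn1, the host of Timp1, gave 6.56 on wild type 1 and 5.78 to 6.00 elsewhere. Syn3, the host of Timp3, gave 5.74 on wild type 1, within the 5.43 to 5.90 of the others. The host gene of Timp4 was thus also over 2-fold higher on that array. The strands of the Timp and synapsin genes were not compared, and signal from overlapping transcripts was not separated here.

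**Figure D3:**
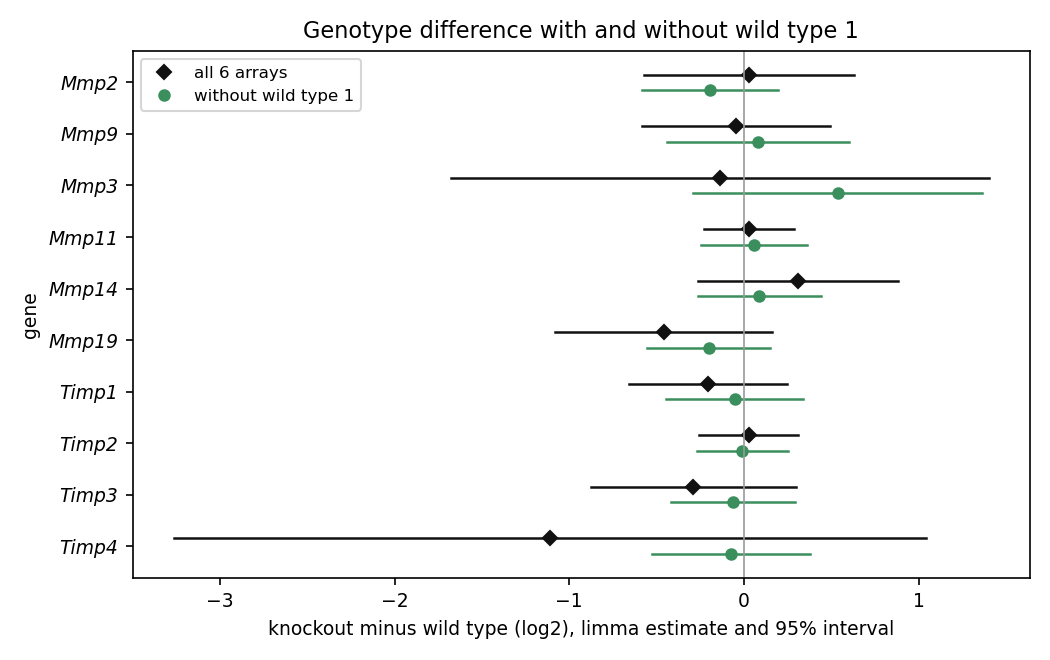
Genotype difference in log2 signal, knockout less wild type (horizontal axis), for each MMP and TIMP gene (vertical axis), as limma estimate and 95% interval, on all 6 arrays (diamonds) and without wild type 1 (circles). Every interval includes 0, and that of Timp4 narrows from -3.27 to 1.04 on 6 arrays to -0.53 to 0.38 on 5.

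Across the set, the array labelled wild type 1 was the highest of the 6 for 5 members and the lowest for 3, where it was the highest for 33.4% and the lowest for 24.6% of all genes. With Mmp9 and Mmp11 it was neither. Timp4 was 1 of 10 members over 2-fold above every other array (4.73% of all genes), and 0 of 10 were over 2-fold below (4.74%). In size, the median distance of wild type 1 from the mean of the other 5 arrays was 0.63 over the members. It was 0.23 over all genes, those below the filter included. Over the lists described below it was 0.53 for matrix substrates and 0.24 for related metalloproteinases. For activators and regulators it was 0.22, and for other MMPs 0.11. Inhibitors and proteases were found in both directions, with Mmp3, Mmp19, Timp1, Timp3 and Timp4 highest there and Mmp2, Mmp14 and Timp2 lowest. Knockout 1 was highest for 4 members (23.6% of all genes) and knockout 2 was lowest for 4 (18.6% of all genes).

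In genotype differences the set had 4 members above and 6 below 0 on 6 arrays (49.8% of all genes above), and 4 above and 6 below on 5 arrays (53.1% of all genes above), but 4 of the 10, Mmp2, Mmp3, Mmp9 and Timp2, changed sign between them. The median difference over the 10 members was -0.093 on 6 arrays and -0.031 on 5, beside -0.0008 and 0.011 over all genes. The larger differences on 6 arrays, those of Timp4, Mmp19, Mmp14 and Timp3, were for genes on which wild type 1 was the extreme array, and each was smaller without it.

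Most other MMPs were dim. Of 17 listed, 16 were on the array and 3 passed the filter, Mmp23, Mmp24 and Mmp28, and none was called. Mmp23 stood highest on wild type 1 with 6.85 against 5.99 to 6.34 elsewhere, and its genotype difference was -0.25 (SE 0.21) on 6 arrays and -0.035 (SE 0.14) without wild type 1. Mmp17, a membrane-bound protease, gave 6.18 there and 5.51 to 6.03 elsewhere. Mmp24 differed by -0.073 (SE 0.12) on 6 arrays and -0.028 (SE 0.14) on 5, and Mmp28 by 0.075 (SE 0.16) and 0.18 (SE 0.16). Over the 16 genes the median difference was 0.044 on 6 arrays and 0.083 on 5, and 0 were over 2-fold apart on wild type 1 in either direction.

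Activators, receptors and other regulators of MMPs gave no call either. Of 32 listed, 28 were on the array and 19 passed the filter, with 0 at an unadjusted limma p under 0.05 on 6 arrays or on 5 and median differences of 0.040 and 0.051. On wild type 1 the hyaluronan receptor Cd44, which can hold Mmp9 at the cell surface, gave 7.63 against 9.12 to 9.65 elsewhere and was the 1 gene of the list over 2-fold below every other array. The tight junction gene Cldn1 and the integrin gene Itgav were also lowest there, at 6.03 against at least 6.86 and at 8.71 against at least 9.16. Lrp1, the receptor that clears MMPs and their inhibitors, Bsg, an inducer of MMPs, and the convertase gene Pcsk5 were highest there, Lrp1 at 10.27 against at most 9.75. On the 5 arrays the groups did not overlap for 4 of the 28 genes, near the 13.8% of all genes. Among these were Thbs1, a thrombospondin that binds Mmp2, at -0.25 (SE 0.11), Plau, the urokinase that activates plasminogen, at 0.17 (SE 0.11), and Cldn1 at -0.23 (SE 0.16), each with a limma adjusted p of 0.997. On 6 arrays the same genes overlapped and stood at -0.077 (SE 0.18), 0.096 (SE 0.12) and 0.22 (SE 0.40), so that Cldn1 had the opposite sign. On 6 arrays the lowest unadjusted p belonged to the serine protease genes Tmprss6 at 0.18 (SE 0.14) and Hpn at 0.16 (SE 0.15), and to Itgav at 0.19 (SE 0.18), which stood at 0.11 (SE 0.15), 0.080 (SE 0.16) and 0.015 (SE 0.12) on 5 arrays.

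Related metalloproteinases of the ADAM, ADAMTS and neprilysin families had 18 of 19 genes on the array and 16 past the filter, with 0 called. Adamts1, which cleaves aggrecan and versican, was the 1 gene with an unadjusted limma p under 0.05 on 6 arrays and also on 5, beside 0.634% and 1.54% of all probe sets tested. It gave 7.74, 7.65 and 8.02 on knockout 1, 2 and 3, and 8.44, 8.35 and 8.29 on wild type 1, 2 and 3, a difference of -0.55 (SE 0.14, limma adjusted p = 0.921), and -0.52 (SE 0.14, limma adjusted p = 0.997) without wild type 1. Neprilysin, Mme, gave 10.17 on wild type 1 against 6.56 to 7.41 elsewhere, and Adam12 gave 7.08 there against 5.35 to 5.47. Adam28 gave 4.34 there against 6.60 to 7.60, the 1 gene of this list over 2-fold below all other arrays. Adamts9 was highest on wild type 1 with each of its 6 probe sets, by 0.35 to 1.48. Adamts5 had a difference of -0.24 (SE 0.21) on 6 arrays and -0.095 (SE 0.19) on 5, and Adam17, Adamts8 and Ece1 differed by -0.19 to 0.15 in both fits.

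Matrix proteins that MMPs cut had 21 of 22 genes on the array, all past the filter, with 0 called and 0 at an unadjusted p under 0.05 in limma on 6 arrays or on 5. The elastic fibre genes Eln and Fbln5 were over 2-fold higher on wild type 1 than on every other array, Eln at 10.31 against 8.60 to 8.96 and Fbln5 at 10.01 against 7.72 to 8.64, and the proteoglycan gene Bgn was 0.85 above the next array. The proteoglycan genes Lum and Vcan were lowest there, Lum at 8.59 against at least 9.53 and Vcan at 6.73 against at least 7.69, as was Col6a1 at 8.74. On 5 arrays Lum differed by -0.41 (SE 0.17), Vcan by -0.32 (SE 0.16) and Col4a2, a basement membrane collagen, by 0.26 (SE 0.13), with groups that did not overlap and a limma adjusted p of 0.997 each. On 6 arrays all 3 had the opposite sign, Lum at 0.11 (SE 0.46), Vcan at 0.18 (SE 0.44) and Col4a2 at -0.077 (SE 0.30), and their groups overlapped. Over the list, groups on 5 arrays did not overlap for 4 genes higher and 3 lower in the knockout, of 21, beside 13.8% of all genes. On 6 arrays Fn1, Col3a1 and Fbln5 had the lowest p, with differences of -0.16 (SE 0.11), 0.23 (SE 0.19) and -0.64 (SE 0.54), and on 5 arrays these were -0.087 (SE 0.093), 0.070 (SE 0.14) and -0.066 (SE 0.27). The median differences of the list were -0.0077 on 6 arrays and 0.022 on 5.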

How the data were processed

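Total RNA was extracted with Trizol and labelled with biotin, per the labels' protocols. MAS5 is the tool named, without a version, in the submitters' processing notes. The deposited table holds 1 value per probe set and array for 35399 probe sets, here taken as log2 signals because they run from 1.55 to 13.96. The sources used here do not give the log base, background correction, summary or scaling, so small differences of dim genes could depend on them. Array medians over annotated probe sets were 6.34 to 6.47. Values were used as deposited.

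The platform annotation lists 23410 of the probe sets, 21789 of them with 1 symbol and 1621 with several, and the other 11989 were left out. The genotypes were compared by limma 3.58.1 under R 4.3.3. The fit was tested on simulated data whose spread was that of the 5 arrays other than wild type 1. That simulation thus did not include an array that stands apart. Members and lists were chosen with earlier results of these data known. All members were named. From each other list, up to 3 genes with the lowest p in each fit and up to 3 farthest above or below on wild type 1 were named. The synapsin genes, Mmp12 and Furin were named after their values were seen. Alternatives were other scalings, a pseudocount of 64, other filters, no trend, array weights, a replicate block and leaving out each array.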

Additional observations from a re-analysis of the deposited data

How the results depend on the processing

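Limma called 0 probe sets in all 21 alternatives, with 27 to 1114 at an unadjusted p under 0.05, and no member was called in any (adjusted p 0.750 to 1.0 for 6 arrays and 0.625 to 1.0 for 5). Of 135 member values under alternatives on 6 arrays, 118 kept their sign and 17 turned, and Mmp14, Mmp19, Timp1, Timp3 and Timp4 turned in none. Median centring shifts the 6-array difference of every gene by about -0.035, so that positive values smaller than this turn by construction. The difference became -0.0068 for Mmp2, -0.0057 for Mmp11 and -0.0082 for Timp2. Under quantile normalization Mmp11 was at -0.031. With array weights it was 0.80 for Mmp3, 0.12 for Mmp9 and -0.014 for Timp2, with a weight of 0.0977 for wild type 1 from an estimate that stopped before full convergence. Leaving out 1 array of 6 gave -0.19 to 0.26 for Mmp2, -0.52 to 0.54 for Mmp3, -0.25 to 0.080 for Mmp9, -0.037 to 0.066 for Mmp11, -0.025 to 0.074 for Timp2, 0.088 to 0.46 for Mmp14, -0.63 to -0.20 for Mmp19, -0.33 to -0.053 for Timp1, -0.47 to -0.063 for Timp3 and -1.71 to -0.076 for Timp4. Settings applied to the 5 arrays were added after the data had been seen, and 14 of 70 values turned. Leaving out a further array gave -0.43 to 0.042 for Mmp2, -0.12 to 0.22 for Mmp9 and -0.044 to 0.16 for Mmp11. It gave -0.17 to 0.038 for Timp1, -0.069 to 0.050 for Timp2, -0.19 to 0.065 for Timp3 and -0.25 to 0.094 for Timp4. For Mmp3 it gave 0.16 to 0.82, for Mmp14 0.0024 to 0.20 and for Mmp19 -0.30 to -0.094. Where wild type 2 or 3 was left out, the lone wild-type array is assumed to vary like the knockout arrays. With quantile normalization Timp2 was at 0.041 on 5 arrays. Wild type 1 minus the mean of the others for Timp2 was -0.18 under quantile normalization and -0.025 under median centring, and Timp4 was the 1 member over 2-fold apart under both. The cause of the other turns was not tested. With the replicate number as a block limma also called 0 probe sets, with 73 at an unadjusted p under 0.05, and changed no member's call. Deviations of same-numbered arrays had r = 0.095, -0.23 and 0.20, within the -0.32 to 0.41 of differently numbered arrays. Tissue signals of single arrays enter these values, so they cannot decide whether the numbers pair the samples. The mean over probe sets gave nothing to run, since each member has 1 probe set. Precision is limited by 3 arrays a group, and no detection calls were used, so whether a dim member is above background was not tested.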

Other observations

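Furin, the convertase that activates Mmp11 and Mmp14, was high on 1 knockout array. It gave 7.64, 10.38 and 7.72 on knockout 1, 2 and 3, and 8.49, 7.73 and 7.73 on wild type 1, 2 and 3. Knockout 2 also had the highest stomach epithelium markers, whose part in this value was not tested. Mmp11 gave 6.21 on that array, between the values of the others. Mmp14 gave 8.77 there, below the other arrays except wild type 1 at 8.24.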
